A study of Mus musculus with 4 samples.

Results

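Matrix metalloproteinases (MMPs) and the tissue inhibitors of metalloproteinases (TIMPs) were followed in lung cells of young and aged mice with and without mechanical ventilation. The 10 genes, 7 MMPs (Mmp2, Mmp3, Mmp8, Mmp9, Mmp12, Mmp14 and Mmp19) and 3 TIMPs (Timp1, Timp2 and Timp3), were found by their symbols among the 32285 genes of the deposited tables. They were chosen by their UMI levels in these same libraries, with earlier results in view, so their values are a description and no test was made of them. The cells came from the left lung lobe of wild type male C57BL/6 mice aged 2 to 3 months (young) or 22 months (aged). For their diet, the labels give a gradual restriction without separating the ages. At each age, nonventilated mice were naive, and the others were ventilated for 3 hours under ketamine, medetomidine and buprenorphine, with vascular lines, pure oxygen and no end-expiratory pressure. A difference between ventilated and nonventilated libraries therefore covers all of these steps. Each of the 4 groups was 1 single-cell RNA-Seq (scRNA-Seq) library of frozen and thawed cells from 3 pooled mice, so mice within a group could not be told apart and the difference between groups cannot be told apart from the difference between libraries.

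MMPs are zinc-dependent proteases that cut collagens, elastin, proteoglycans and many signaling proteins of the extracellular matrix. Most are secreted as inactive proenzymes and become active once the prodomain is removed, and the TIMPs bind the active site and stop them. In the lung they are known for matrix turnover in the stroma and for the passage of leukocytes out of vessels, and TIMP3 differs from the other TIMPs in that it is held in the matrix and also blocks ADAM proteases.

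Values are counts of unique molecular identifiers (UMIs, 1 for each captured transcript) summed over the cells of a class in a library and scaled to 1000000 UMIs of that class, written CPM. After filtering, 9514 of 15428 barcodes were kept, 1960 to 2750 in each library, with 17736722 to 22711057 UMIs in a library. Cells were assigned to 15 classes by their markers at a coarse clustering and to 21 at a finer one, and the classes are called "like" a cell type because they rest on marker lists. Where 4 values stand in a row, their order is young nonventilated, young ventilated, aged nonventilated, aged ventilated. Ratios between libraries carry 95% exact conditional binomial intervals, which cover counting error only. A ratio of at least 2 or at most 0.5 was called past 2-fold where the pair of libraries had a mean of at least 10 CPM and 1 of them at least 20 UMIs. The deposited tables do not scale values by transcript length, so levels are compared between libraries and classes for the same gene, not between genes.

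Over all cells of a library, 5 of the 9 members that passed this filter in the young mice were at least 2-fold higher after ventilation and none was lower. Among all genes, 5.51% were higher and 9.81% lower by this measure, and Mmp12 did not pass the filter. The 5 were Timp1 with 16.3-fold (14.4 to 18.4), Mmp8 with 6.31-fold (5.44 to 7.33), Mmp19 with 5.50-fold (4.99 to 6.06), Mmp14 with 3.47-fold (3.20 to 3.76) and Mmp3 with 2.49-fold (2.29 to 2.71). In the aged mice, 5 of the 10 members were higher and none lower, beside 3.45% and 5.28% of all genes. Here Mmp8 came first with 25.8-fold (21.9 to 30.7), before Mmp14 with 4.09-fold (3.76 to 4.46), Timp1 with 3.53-fold (3.11 to 4.02), Mmp9 with 3.37-fold (2.85 to 4.01) and Mmp19 with 2.16-fold (1.94 to 2.41). Mmp8, Mmp14, Mmp19 and Timp1 were past 2-fold at both ages, but the aged ratio of Mmp19 was 1.73 with no upper limits on genes or UMIs, 1.84 with a mitochondrial limit of 5% and 1.66 after thinning. On the log2 scale, the median ratio over the members was 1.32 for the young and 1.05 for the aged libraries, where that of all genes was -0.14 and -0.12.

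Between the nonventilated libraries, 1 of 9 members was at least 2-fold higher in the aged and 1 lower, beside 0.74% and 0.236% of all genes, and Mmp8 did not pass the filter. Mmp12 was 2.24-fold (1.87 to 2.69) higher and Mmp9 was at 0.331 times (0.279 to 0.390) the young level. Between the ventilated libraries, 1 of 10 members was higher in the aged, Mmp8 with 2.87-fold (2.69 to 3.06), and 3 were lower, beside 0.974% and 1.73% of all genes. The 3 were Timp1 at 0.253 times (0.236 to 0.272), Mmp3 at 0.399 times (0.363 to 0.436) and Mmp19 at 0.420 times (0.389 to 0.453) the young ventilated level. With no upper limits on genes or UMIs, the Mmp3 ratio was 0.620. In such sums over all cells, a change in the number of cells of a type and a change in RNA per cell cannot be told apart. The number of neutrophil-like cells was 121 without and 223 with ventilation in young mice, and 59 without and 256 with it in aged mice.

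The members fell into groups by the cells that held their UMIs. Neutrophil-like cells held 91.2% of the Mmp9 and 77.6% of the Mmp8 UMIs. Fibroblast-like cells held 92.3% of the Mmp2, 92.1% of the Mmp3, 80.3% of the Timp1, 53.3% of the Mmp19 and 50.2% of the Timp2 UMIs. Alveolar macrophage-like cells held a further 29.2% of the Mmp19 UMIs. The coarse interstitial macrophage-like class, which also takes in dendritic-like cells, held 82.9% of the Mmp12 UMIs. Mmp14 was spread over fibroblast-like (36.1%) and monocyte-like cells (35.5%), and Timp3 over general capillary-like (42.9%), fibroblast-like (19.9%) and aerocyte-like cells (16.8%), aerocytes being the large capillary cells of gas exchange. B-like cells, which were taken as the background because they should lack these genes, had no UMI of Mmp3, Mmp12 or Timp1 in any library.

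**Figure D1:**
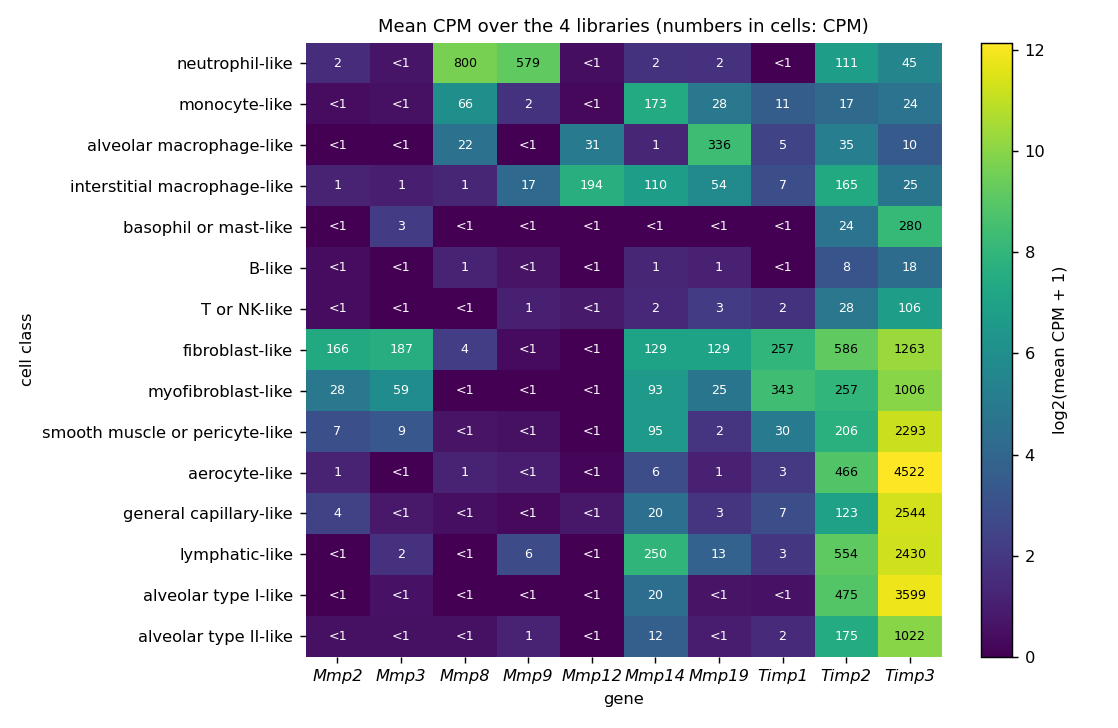
Mean CPM over the 4 libraries of each of the 10 genes (columns) in the 15 coarse cell classes (rows), with color on a log2(mean CPM + 1) scale and the CPM printed in each cell. Mmp8 and Mmp9 are highest in the neutrophil-like row, Mmp2 and Mmp3 in the fibroblast-like row, Mmp19 in the alveolar macrophage-like row and Timp3 in the aerocyte-like row.

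Across the 4 comparisons, single classes were also past 2-fold, and the share of such pairs of a member and a class can be set beside that of all genes. After ventilation in young mice, 20 of the 49 pairs that passed the filter were higher and 9 lower, beside 9.29% and 13.1% of all pairs of a gene and a class. In aged mice, 15 of 46 were higher and 3 lower, beside 5.56% and 9.7%. Aged over young, 4 of 43 nonventilated pairs were higher and 5 lower (3.69% and 2.89% of all pairs), and 3 of 49 ventilated pairs were higher and 8 lower (4.11% and 5.21%).

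**Figure D2:**
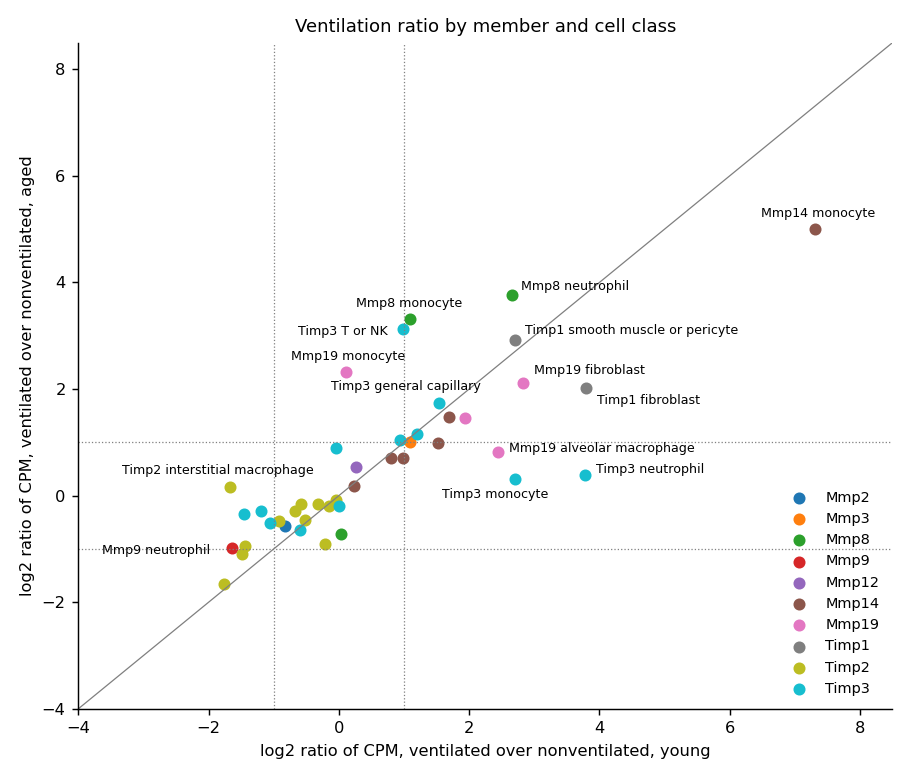
Log2 ratio of CPM, ventilated over nonventilated, in young (x axis) against aged mice (y axis) for the 43 pairs of a gene and a coarse cell class that passed the filter at both ages, with dotted lines at 2-fold and the diagonal as a line. Mmp14 in monocyte-like cells lies farthest right and up, Timp1 in fibroblast-like cells lies below the diagonal, and Mmp8 in neutrophil-like cells lies above it.

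Mmp8 and Mmp9, the neutrophil collagenase and the gelatinase of neutrophil granules, went in opposite directions within the same cells. In the neutrophil-like class, Mmp8 was at 161 CPM without and 1015 with ventilation in young mice, and 139.5 without and 1885 with it in aged mice. Both ventilated libraries lay above both nonventilated ones, by 6.31-fold (5.06 to 7.95) in young and 13.5-fold (9.64 to 19.6) in aged mice. The nonventilated libraries differed by less than counting error (0.866 times, 0.565 to 1.30), and the aged ventilated one was 1.86-fold (1.73 to 1.99) above the young ventilated one. Mmp9 was at 909.8 CPM without and 291 with ventilation in young mice, and 743 without and 374 with it in aged mice. Here both ventilated libraries were the low ones, at 0.320 times (0.277 to 0.370) the nonventilated level in young and 0.503 times (0.423 to 0.600) in aged mice. The higher Mmp9 level over all cells of the aged library thus stood beside a lower level within the neutrophil-like cells and more such cells.

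The cells themselves showed the same order. With each cell thinned to 1000 UMIs, 10.8% of neutrophil-like cells had an Mmp8 UMI without and 36.0% with ventilation in young mice, and 8.62% without and 44.2% with it in aged mice (36.4%, 48.9%, 27.1% and 64.5% without thinning). For Mmp9 the shares were 53.3%, 19.6%, 48.3% and 23.7% in the same order, and 86.8%, 43.5%, 84.7% and 54.3% without thinning. In B-like cells, at most 2.56% had an Mmp8 UMI and at most 1.28% an Mmp9 UMI, at a median of 8468.5 UMIs per cell against 4775 in neutrophil-like cells. No single cell decided these levels, since the highest cell held at most 14.7% of the Mmp8 and at most 6.63% of the Mmp9 UMIs of its library's class. The 8 neutrophil markers summed to 87496 to 157528 CPM in this class, and the 6 classical monocyte markers in it to 97.3 CPM without and 1165 with ventilation in young mice, and 226 without and 948 with it in aged mice. Whether cells of that type in the class had a part in the Mmp8 values was not tested.

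Mmp8 was also measured in classical monocyte-like cells, the inflammatory monocytes of blood, at 66.3 CPM without and 163 with ventilation in young mice, and 54.1 without and 271 with it in aged mice. Ventilated libraries were again the higher ones, by 2.46-fold (1.92 to 3.18) and 5.01-fold (3.81 to 6.68). The 8 neutrophil markers in these cells moved along with it, with 339.6, 1759, 409 and 1889 CPM, none of them at 0. The part of neutrophil RNA in these values was not tested. In nonclassical monocyte-like cells, which patrol the vessel wall, 58 Mmp8 UMIs were seen in the aged ventilated library and 0, 5 and 1 in the young nonventilated, young ventilated and aged nonventilated ones. Alveolar fibroblast-like cells had 2, 21, 2 and 30 Mmp8 UMIs. The part of neutrophil RNA in the counts of these classes was not tested either. Mmp9 outside the neutrophil-like class was seen chiefly in interstitial macrophage-like cells, with 59 UMIs in the young nonventilated and 11, 1 and 7 in the other libraries.

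Mmp14, the membrane-type protease that cuts collagen at the cell surface and activates proMMP2, showed the largest ventilation ratio of the 10 genes in young mice, in monocyte-like cells. Classical monocyte-like cells held 1.40 CPM (2 UMIs) without and 413 CPM (499 UMIs) with ventilation in young mice, and 7.33 CPM (8 UMIs) without and 519 CPM (888 UMIs) with it in aged mice. The ratio was 296-fold (81.6 to 2453) in young and 70.8-fold (35.8 to 165) in aged mice. Nonclassical monocyte-like cells showed the same order at a lower level, with 2.19 CPM without and 195 with ventilation in young mice, and 14.1 without and 282 with it in aged mice, or 89.1-fold (30.2 to 434) and 19.9-fold (14.6 to 27.9). In the coarse class of both, the ratios were 159 in young and 31.9 in aged mice. With cells thinned to 1000 UMIs, the ratio was 20.2 in aged and at least 17.9 in young mice. After thinning, no young nonventilated cell of the class had an Mmp14 UMI. That count was set to 3, the floor used here for a library, so the thinned ratios cannot rank the ages. The wide intervals follow from the 2 to 43 UMIs in the nonventilated libraries, and the ventilated levels at the 2 ages were close, with aged over young ratios of 1.26 (1.12 to 1.40) and 1.44 (1.25 to 1.66).

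The Mmp14 UMIs were spread over many cells. In classical monocyte-like cells, 2.13% had an Mmp14 UMI without and 85.5% with ventilation in young mice, and 6.98% without and 85.7% with it in aged mice, where B-like cells had 0%, 2.78%, 1.04% and 1.28%. The nonclassical shares were 1.37%, 48.3%, 8.40% and 67.0%. Thinned to 1000 UMIs per cell, the classical shares were 0%, 26.5%, 1.16% and 39.0% and the nonclassical 0%, 15.1%, 1.69% and 23.2%. The median depth was 15191 UMIs per cell in the classical, 8152 in the nonclassical and 8468.5 in the B-like cells. Nonventilated and ventilated classical monocyte-like cells lay in different clusters. Of the 180 cells of the first, 94 were young and 85 aged nonventilated, and of the 188 cells of the second, 83 were young and 104 aged ventilated. The 6 classical monocyte markers summed to 4957 to 8651 CPM in all 4 libraries, and the alveolar fibroblast markers, a cell type that also has Mmp14, to 8.28 to 33.9 CPM, with the defining markers Tcf21 and Slc7a10 at 0.

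**Figure D3:**
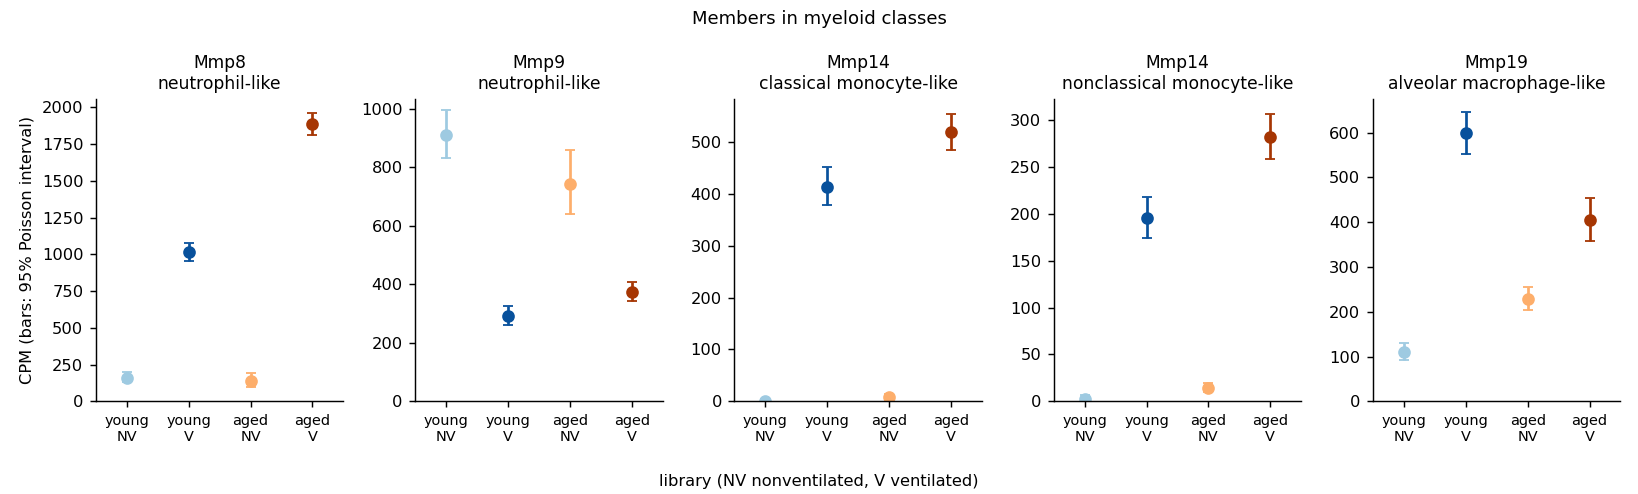
CPM in each of the 4 libraries (points, bars are 95% Poisson intervals for counting error) of Mmp8 and Mmp9 in neutrophil-like, Mmp14 in classical and nonclassical monocyte-like and Mmp19 in alveolar macrophage-like cells. Both ventilated libraries lie above both nonventilated ones for Mmp8, Mmp14 and Mmp19, and below them for Mmp9.

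Mmp14 was also higher after ventilation in stromal and other myeloid cells. Fibroblast-like cells were at 70.7 CPM without and 204 with ventilation in young mice, and 81.6 without and 161 with it in aged mice, 2.89-fold (2.56 to 3.26) in young and 1.97-fold (1.71 to 2.28) in aged mice. Interstitial macrophage-like cells at the finer clustering were at 63.8, 324, 100.5 and 189 CPM in the same order, and dendritic-like cells at 43.9, 108, 35.3 and 112 CPM. The highest mean over the 4 libraries of any coarse class, 250 CPM, was in lymphatic-like endothelium with 153, 301, 206 and 338 CPM, where the aged and young libraries overlapped within counting error. General capillary-like cells stayed low, at 24.6, 29.0, 12.9 and 14.7 CPM, and here the ages differed more than the ventilation groups.

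Mmp12, the macrophage elastase, was found chiefly in macrophage-like and dendritic-like cells. In alveolar macrophage-like cells there was 1 UMI without and 6 with ventilation in young mice, and 150 without and 4 with it in aged mice (0.772, 5.53, 111 and 5.72 CPM), so that the aged nonventilated library alone was high. The aged over young nonventilated ratio was 144-fold, with an interval of 25.4 to 5706, since it rests on 1 UMI, and the aged ventilated library was at 0.0517 times (0.0139 to 0.135) the aged nonventilated level. With no upper limits on genes or UMIs per cell these ratios were 5.15 and 0.186. The 150 UMIs lay in 19 of 85 cells, with 34 in the highest and 59.3% in the top 3. Over all cells, the aged over young nonventilated ratio of 2.24 was 1.67 under another setting of the cell filter.

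The 19 cells were alveolar macrophage-like by their other genes. They held 148 CPM of Marco, a scavenger receptor, and 8039 CPM of Chil3, a chitinase-like protein of these macrophages, against 227 and 7355 CPM in the 66 cells without Mmp12. Their median depth was 17249 UMIs against 16155.5. The complement genes C1qa, C1qb and C1qc, which define interstitial macrophages, had no UMI in the 19 cells and at most 0.946 CPM in the 66. Over the whole class, the 8 interstitial macrophage markers summed to 15.4 to 27.3 CPM in the 4 libraries, with a UMI for 7 of 8 and Folr2 at 0. The 8 dendritic markers summed to 5.72 to 24.4 CPM, with a UMI for 4 of 8 and Xcr1, Cd209a, Ccr7 and Siglech at 0.

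Interstitial macrophage-like cells held the highest Mmp12 level, 250.6 CPM without and 402 with ventilation in young mice, and 467 without and 396 with it in aged mice. A single cell decided the order there. The highest cell of the aged nonventilated library held 59.7% of its 186 UMIs, and the aged over young nonventilated ratio of 1.86 became 0.971 without the highest cell of each library, while the aged ventilation ratio of 0.848 became 1.48. The share of cells with a UMI was 30.2%, 27.3%, 37.5% and 43.2%, or 11.3%, 18.2%, 15.6% and 16.2% after thinning, beside 0 of 304 B-like cells, at a median of 12313 UMIs against 8468.5. In dendritic-like cells, 12, 74, 55 and 48 UMIs were counted, of which the highest cell held 94.6% in the young ventilated library.

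**Figure D4:**
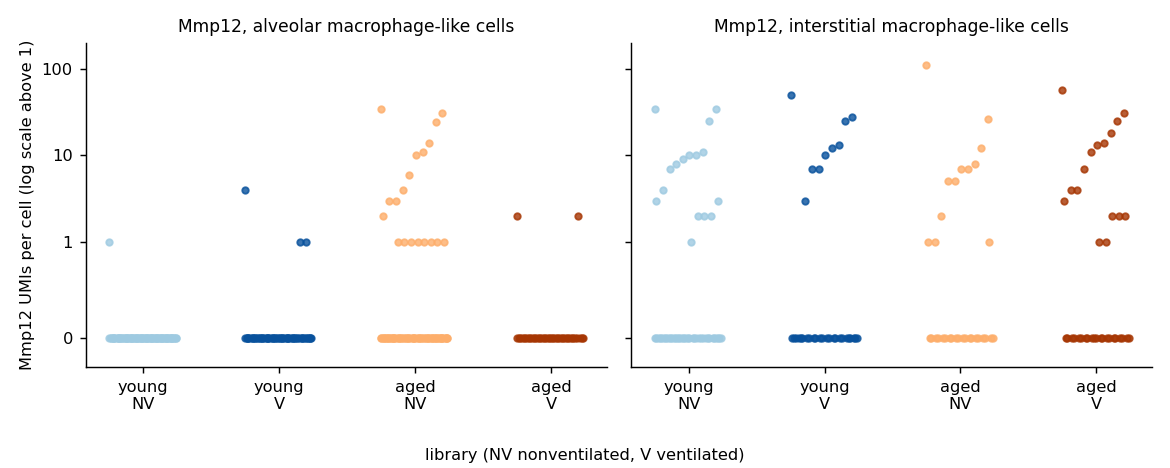
Mmp12 UMIs of each cell (points, log scale above 1) in alveolar and interstitial macrophage-like cells of the 4 libraries, with cells spread sideways only to be seen. In alveolar macrophage-like cells, 19 points of the aged nonventilated library lie above 0, against 1, 3 and 2 in the other libraries, while in interstitial macrophage-like cells all 4 libraries have points above 10.

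Mmp19, a secreted protease that cuts basement membrane proteins, was highest in alveolar macrophage-like cells. These were at 110.4 CPM without and 599 with ventilation in young mice, and 229 without and 405 with it in aged mice. The ventilated libraries were the high ones, by 5.42-fold (4.52 to 6.55) in young and 1.77-fold (1.50 to 2.08) in aged mice, and the aged nonventilated library stood 2.07-fold (1.70 to 2.55) above the young one. The share of cells with an Mmp19 UMI was 55.0%, 92.1%, 77.6% and 92.9%, and after thinning to 1000 UMIs per cell 6.25%, 38.1%, 17.6% and 21.4%, against at most 2.78% of B-like cells. The median depth was 17108.5 UMIs in these macrophages and 8468.5 in B-like cells. Classical monocyte-like cells differed in their pattern, with 64.2 CPM without and 79.5 with ventilation in young mice, and 22.9 without and 74.8 with it in aged mice, so that the aged nonventilated library alone was low, at 0.357 times (0.220 to 0.561) the young one. Nonclassical monocyte-like cells held 2 to 5 Mmp19 UMIs per library.

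In the coarse fibroblast-like class, 4 members that were higher after ventilation at both ages, Timp1, Mmp19, Mmp14 and Mmp3, could be set beside each other. RefSeq promoters, from 250 bases before to 50 after the start on GRCm38.p6, were given for 7 of the 10 members. Those of Mmp3 at chr9:7445572-7445871 (plus strand), Mmp14 at chr14:54431348-54431647 (plus strand) and Timp1 at chrX:20869916-20870215 (plus strand) are shown 5′ to 3′ because each was among these members. At the finer clustering, Mmp3 in adventitial fibroblast-like cells was lower after ventilation in young mice (0.517) and higher in aged ones (2.88). Shared regulation was not tested. Capitals mark matches to the AP-1 motif TGANTCA or the variant TGAGTAA on either strand.
Mmp3: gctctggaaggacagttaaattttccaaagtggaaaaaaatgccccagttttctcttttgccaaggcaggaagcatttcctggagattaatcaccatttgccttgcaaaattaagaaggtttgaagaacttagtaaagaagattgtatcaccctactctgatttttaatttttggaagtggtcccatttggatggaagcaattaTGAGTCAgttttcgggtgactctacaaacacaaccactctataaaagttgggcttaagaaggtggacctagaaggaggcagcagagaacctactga
Mmp14: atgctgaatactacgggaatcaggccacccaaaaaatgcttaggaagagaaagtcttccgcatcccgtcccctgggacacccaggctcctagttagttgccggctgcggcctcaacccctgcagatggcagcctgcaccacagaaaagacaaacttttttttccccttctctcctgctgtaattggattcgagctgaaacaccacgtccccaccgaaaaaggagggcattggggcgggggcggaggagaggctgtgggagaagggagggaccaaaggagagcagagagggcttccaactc
Timp1: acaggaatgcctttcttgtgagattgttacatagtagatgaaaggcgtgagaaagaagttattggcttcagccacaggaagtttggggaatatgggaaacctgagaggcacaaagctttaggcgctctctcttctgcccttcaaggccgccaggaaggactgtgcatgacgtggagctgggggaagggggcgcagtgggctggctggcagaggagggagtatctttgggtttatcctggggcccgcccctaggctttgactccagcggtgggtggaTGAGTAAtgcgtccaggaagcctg
TGANTCA was found in Mmp3, 46 bases before the start, and TGAGTAA in Timp1, 27 bases after it, while the Mmp14 window held neither. Of 32851 promoters of the same length, 7.81% held TGANTCA and 2.68% TGAGTAA. A match is a run of letters and not a known binding site, and the other 4 members searched were Mmp8, Mmp12, Timp2 and Timp3, of which Mmp12 had a TGANTCA, 44 bases before its second start.

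Timp1, a secreted inhibitor of most MMPs that is also known as an acute-phase gene, had the widest ventilation ratio of the members in fibroblast-like cells of young mice. Fibroblast-like cells were at 47.2 CPM without and 657 with ventilation in young mice, and 64.0 without and 260 with it in aged mice. Both ventilated libraries were high, by 13.9-fold (12.2 to 16.0) in young and 4.06-fold (3.52 to 4.70) in aged mice, and the aged ventilated library reached 0.396 times (0.366 to 0.428) the young one. The finer classes placed this difference between the ages. In alveolar fibroblast-like cells, the lipid-bearing fibroblasts beside the alveoli, the levels were 27.5, 571, 55.6 and 155 CPM, or 20.7-fold (17.3 to 25.1) in young and 2.79-fold (2.35 to 3.31) in aged mice. In adventitial fibroblast-like cells, which line vessels and airways, they were 173, 1597, 170.2 and 1022 CPM, or 9.23-fold (7.61 to 11.3) and 6.01-fold (4.75 to 7.66). Without the highest cell of each library the adventitial ratios were 8.78 in young and 8.65 in aged mice, and without the top 3 they were 8.74 and 9.08. The alveolar ratios without the highest cell were 22.6 and 2.90. The aged over young ventilated ratio was 0.271 (0.245 to 0.300) in the alveolar and 0.640 (0.566 to 0.723) in the adventitial class, and whether the classes differ was not tested.

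The share of alveolar fibroblast-like cells with a Timp1 UMI was 14.7%, 64.8%, 18.1% and 33.6%, or 1.37%, 24.6%, 3.86% and 13.4% after thinning, and that of adventitial fibroblast-like cells 58.8%, 90.2%, 59.5% and 96.2%, or 11.8%, 56.1%, 16.7% and 53.8% after thinning. The median depth was 12363 UMIs in the alveolar and 14350 in the adventitial cells, against 8468.5 in B-like cells, of which none had a Timp1 UMI. Myofibroblast-like cells, the contractile cells of the alveolar entrance, went from 39.2 to 1211 CPM in young mice (30.9-fold, 18.2 to 57.0) and from 53.1 to 67.3 CPM in aged ones, the latter on 11 and 9 UMIs. These aged levels rest on 23 and 16 cells. Smooth muscle-like cells were at 12.0, 123, 10.3 and 103 CPM, so that the ages overlapped there. Classical monocyte-like cells had no Timp1 UMI in the young nonventilated library and 71 in the young ventilated one, at least 28.1-fold higher if the 0 is set to 3 counts, the floor used here for a library, and 1 and 65 UMIs in the aged libraries.

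The fibroblast clusters themselves differed between the libraries. Deeply sequenced alveolar fibroblast-like cells of the nonventilated libraries lay in 1 cluster (298 young and 243 aged nonventilated of 547 cells) and those of the ventilated libraries in another (382 young and 176 aged ventilated of 566 cells). The 7 alveolar fibroblast markers summed to 13341 CPM without and 4381 with ventilation in young mice, and 12383 without and 6234 with it in aged mice, with all 7 detected. The 7 adventitial markers in the adventitial class summed to 11749, 5658, 9485 and 9473 CPM. The remaining cluster of 338 such cells, drawn about equally from the 4 libraries, had a median of only 1549 UMIs. The part of the lower marker sums in the members' values was not tested.

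Mmp19 in fibroblast-like cells followed Timp1, with 43.3 CPM without and 308 with ventilation in young mice, and 31.2 without and 134 with it in aged mice. The ventilation ratio was 7.11-fold (6.16 to 8.23) in young and 4.31-fold (3.52 to 5.31) in aged mice, and the aged ventilated library was at 0.436 times (0.390 to 0.487) the young one. In alveolar fibroblast-like cells it was at 43.2, 331, 32.9 and 135 CPM, and in adventitial ones at 44.7, 94.8, 21.0 and 108 CPM. The difference between the ventilated libraries was thus seen in the alveolar cells (0.406, 0.362 to 0.454), whereas the adventitial values overlapped within counting error (1.14, 0.737 to 1.75).

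Mmp3, or stromelysin, which cuts proteoglycans and activates other MMPs, was at 144 CPM in fibroblast-like cells without and 307 with ventilation in young mice, and 98.4 without and 198 with it in aged mice. Both ventilated libraries were higher, by 2.13-fold (1.95 to 2.33) and 2.01-fold (1.77 to 2.29). Only a minority of these cells had an Mmp3 UMI, 15.2%, 23.1%, 15.0% and 14.9% (7.30%, 11.1%, 5.59% and 6.73% after thinning), and few cells held many UMIs. The median depth was 14399 UMIs, and no B-like cell had an Mmp3 UMI. In alveolar fibroblast-like cells, Mmp3 was at 106 CPM without and 323 with ventilation in young mice, and 67.5 without and 103 with it in aged mice, 3.04-fold (2.74 to 3.37) and 1.53-fold (1.28 to 1.82) after ventilation. Without the highest cell of each library these ratios were 3.61 and 1.20. In adventitial fibroblast-like cells it was at 419, 217, 302.2 and 870.0 CPM, lower after ventilation in young mice (0.517, 0.416 to 0.640) and higher in aged ones (2.88, 2.37 to 3.51). There, the highest of 51 young nonventilated cells held 155 of 281 UMIs, and the top 3 of 41 young ventilated cells held 98.4%. Without the highest cell of each library the ratios were 0.659 and 2.73, and without the top 3 they were 0.0244 and 2.46. In myofibroblast-like cells of the young ventilated library, 66 of 69 Mmp3 UMIs lay in 1 cell, with none in either nonventilated library, so the ratio of at least 24.7 there is that of a single cell.

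Mmp2, the gelatinase of resting fibroblasts, went the other way. Fibroblast-like cells held 217 CPM without and 122 with ventilation in young mice, and 194 without and 131 with it in aged mice. Ventilated libraries were the low ones at both ages, at 0.562 times (0.510 to 0.619) and 0.673 times (0.594 to 0.761) the nonventilated level, within the 2-fold limit. The ages differed little within a treatment (0.896, 0.816 to 0.984, nonventilated, and 1.07, 0.945 to 1.22, ventilated). Alveolar fibroblast-like cells were at 164, 99.1, 168 and 109 CPM, and adventitial ones at 539.6, 320.0, 342 and 271.5 CPM, the higher level of both classes in each library. The thinned share of adventitial cells with an Mmp2 UMI was 41.2%, 17.1%, 31.0% and 26.9%.

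**Figure D5:**
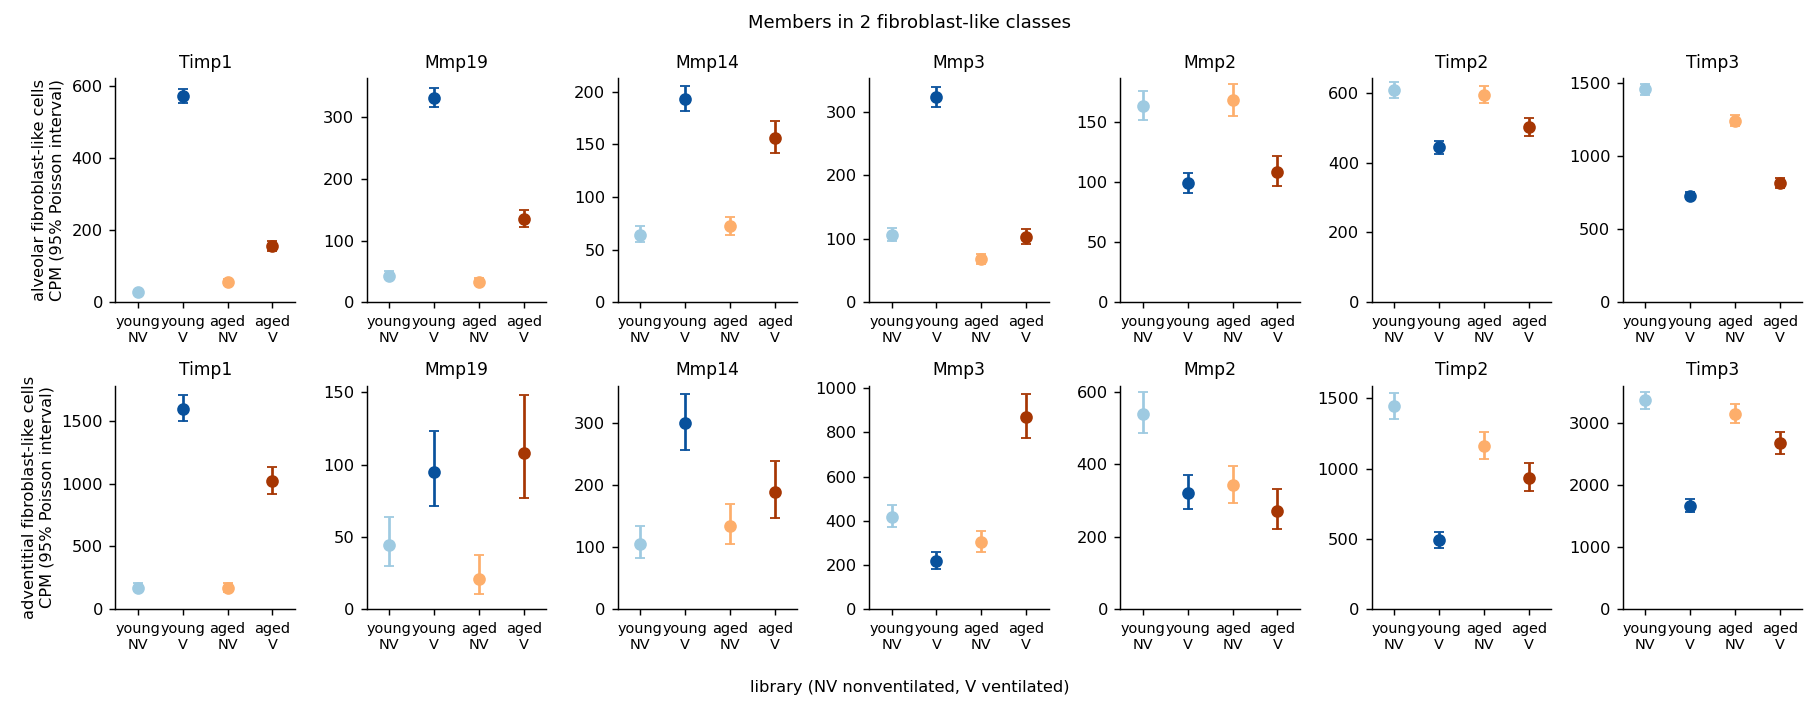
CPM in each of the 4 libraries (points, bars are 95% Poisson intervals for counting error) of 7 members in alveolar (top) and adventitial fibroblast-like cells (bottom). Timp1, Mmp19 and Mmp14 are higher in both ventilated libraries in either class, Mmp2 and Timp3 are lower, and Mmp3 in adventitial fibroblast-like cells is lower after ventilation in young and higher in aged mice, while the bars of Mmp14 and Mmp2 in aged adventitial cells overlap.

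Timp2, the inhibitor that also takes part in the activation of proMMP2 by MMP14, was lower after ventilation in several classes and flat in others. General capillary-like cells, the endothelium that makes up most lung capillaries, were at 177 CPM without and 63.5 with ventilation in young mice, and 170.4 without and 80.0 with it in aged mice. Both ventilated libraries were low, at 0.358 times (0.315 to 0.405) and 0.469 times (0.412 to 0.534) the nonventilated level. Venous-like endothelium was also lower in both ventilated libraries, with 234, 81.1, 146 and 49.0 CPM. Fibroblast-like cells were at 705, 440.0, 659.8 and 539.5 CPM, and adventitial fibroblast-like cells at 1441, 491, 1161 and 936.5 CPM, where the young ventilated library alone was past 2-fold, at 0.341 times (0.298 to 0.389) its nonventilated level, and the aged one was at 0.807 times (0.704 to 0.923). Alveolar type I-like cells, the flat cells of gas exchange, were at 462, 448, 509 and 479 CPM and did not differ beyond counting error in any comparison, nor did smooth muscle- or pericyte-like cells at 215, 193, 223 and 194 CPM or neutrophil-like cells at 122, 97.7, 119 and 107 CPM. The highest mean over the 4 libraries was in mesothelial-like cells, the lining of the lung surface, with 1753, 1326, 1878 and 690.5 CPM in 27 cells. Only 3 of these cells were in each aged library, and in the aged ventilated one adventitial fibroblast-like cells were higher.

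Timp3, the inhibitor bound to the matrix, was higher after ventilation in capillary and mural cells and lower in fibroblasts. General capillary-like cells were at 929 CPM without and 2693 with ventilation in young mice, and 1507 without and 5048 with it in aged mice. Both ventilated libraries were high, by 2.90-fold (2.81 to 2.99) and 3.35-fold (3.26 to 3.44), and at either treatment the aged library was above the young one, by 1.62-fold (1.57 to 1.68) nonventilated and 1.87-fold (1.84 to 1.91) ventilated. Aerocyte-like cells held the highest level, 2445, 5601, 3123 and 6920 CPM, with ventilation ratios of 2.29 (2.20 to 2.39) and 2.22 (2.12 to 2.32). Venous-like cells were at 1771, 2609, 2202 and 6273 CPM, with ratios of 1.47 (1.37 to 1.59) and 2.85 (2.69 to 3.02). Among the mural cells that wrap the vessels, pericyte-like cells were at 481.5, 2187, 775 and 1624 CPM, and smooth muscle-like cells at 2144, 3943, 2112 and 4752 CPM. The share of general capillary-like cells with a Timp3 UMI was 68.9%, 92.0%, 88.2% and 98.4%, and 35.9%, 71.5%, 57.6% and 86.7% after thinning, at a median of 7579.5 UMIs.

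Lymphatic-like endothelium did not share this pattern, with 2387, 2395, 2631 and 2305 CPM of Timp3 and a young ventilation ratio of 1.00 (0.897 to 1.12). Alveolar type I-like cells were at 3342, 3256, 2735 and 5061 CPM, so that the aged ventilated library alone was high. Fibroblast-like cells were lower after ventilation with 1704, 816, 1493 and 1040.2 CPM, or 0.479 times (0.462 to 0.496) in young and 0.697 times (0.667 to 0.728) in aged mice. Nonventilated and ventilated general capillary-like cells lay in different clusters, with 574 young and 498 aged nonventilated of the 1144 cells of 1 and 616 young and 307 aged ventilated of the 946 cells of the other. The 8 general capillary markers in the class summed to 9126, 6009, 8992 and 7301 CPM, and the 7 aerocyte markers in aerocyte-like cells to 6383, 2768, 5648 and 3499 CPM. Their part in the Timp3 values was not tested.

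Timp3 was also counted in leukocytes, in part in single cells. B-like cells had a Timp3 UMI in 6.38%, 16.7%, 9.38% and 16.7% of cells, and neutrophil-like cells in 1.65%, 8.52%, 3.39% and 9.77%. In neutrophil-like cells a single cell held 33 of 56 UMIs in the young ventilated and 54 of 92 in the aged ventilated library. All 34 UMIs of the basophil- or mast-like class in the aged ventilated library lay in 1 of 6 cells, where the 8 general capillary markers summed to 1773 CPM over the class, against 34.1 to 196 CPM in the other libraries.

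Genes around the members were counted from lists of the same pathway. Of 16 other MMP and TIMP genes, at most 2 passed the filter over all cells in any comparison, and Mmp15, a membrane-type protease, was at 18.0 CPM in the young nonventilated and 2.91 in the young ventilated library (0.162, 0.123 to 0.210). Of 16 ADAM and ADAMTS proteases, 3 of 15 tested were higher and 1 lower after ventilation in young mice, and 1 of 13 higher in aged mice. Among all genes, 5.51% were higher and 9.81% lower in young, and 3.45% higher and 5.28% lower in aged mice. Counts this small cannot be told apart from those shares. Adamts4, an aggrecanase, was at 11.2, 112, 43.9 and 42.9 CPM, 9.93-fold (8.70 to 11.4) higher after ventilation in young mice, while the aged libraries did not differ by more than 2-fold from each other. Among the activators and other inhibitors, Plat, a plasminogen activator, had ventilation ratios of 2.48 (2.33 to 2.63) in young and 2.27 (2.14 to 2.42) in aged mice. Thbs1, a matrix protein that binds MMPs, had a ratio of 4.88 (4.77 to 5.003) in young mice, and Spock2, a matrix proteoglycan, was at 0.494 times (0.422 to 0.577) the nonventilated level in aged mice. Of 9 cathepsins and serine elastases, 1 of 6 was higher in young mice, Ctsk with 2.06-fold (1.82 to 2.34), and none of 6 was past 2-fold in aged mice, beside the same shares of all genes.

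The genes with the most similar pattern were found by Pearson's r of log2(CPM + 10) over the 60 sums of 15 classes in 4 libraries, among 10075 genes. These sums share libraries and depth, so r is given as a description without a p-value. Mmp9 was closest to Nlrp12 (0.968), Mmp8 to B430306N03Rik (0.946), Mmp2 to Cpxm1 (0.968), Mmp3 to Brinp1 (0.910), Mmp12 to Ccl17 (0.908) and Mmp19 to Pla2g15 (0.784). The classes are the coarse ones, where dendritic-like and interstitial macrophage-like cells share a class. At the finer clustering, Ccl17 was the most enriched gene of the dendritic-like cluster, while Mmp12 was highest in interstitial macrophage-like cells. Timp1 was closest to Fgf2 (0.894), Timp2 to Zfhx3 (0.843) and Timp3 to Npdc1 (0.957). Mmp14 had the least similar neighbor, Tspan3 (0.775). Between members, r was highest for Mmp3 and Timp1 (0.840), Mmp2 and Mmp3 (0.784), Timp2 and Timp3 (0.767) and Mmp8 and Mmp9 (0.763).

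By the GENCODE annotation of GRCm38, the members are protein-coding genes, with Mmp12 (chr9:7344381-7369499), Mmp3 (chr9:7445822-7455975) and Mmp8 (chr9:7558456-7568485) in 1 cluster on the plus strand. The others are Mmp9 (chr2:164940780-164955850), Mmp2 (chr8:92827291-92853420), Timp3 (chr10:86300372-86349506), Mmp19 (chr10:128790910-128800824), Mmp14 (chr14:54431612-54445364) and Timp1 (chrX:20870166-20874735) on the plus strand, and Timp2 (chr11:118301069-118355740) on the minus strand. Cep295nl lies on the strand of Timp2 and overlaps it, so shared reads of both could be split between them, and it had 84 UMIs. Mmp12, Mmp19, Timp1 and Timp3 overlap genes on the opposite strand, the most abundant of which was Syn3, which overlaps Timp3, with 3115 UMIs.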

How the data were processed

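The deposited files hold counts of UMIs per gene and barcode, which the authors made with Cell Ranger 7.0.0 on mm10 per the submitters' processing notes. Each of the 4 libraries pooled cells of 3 mice, so no test between groups could be made and no p-value is given. A barcode was kept if it had from 200 to 5000 genes, a mitochondrial share of at most 10% and a UMI total up to the 93rd percentile (21021). Of the deposited barcodes, 23 occurred in more than 1 library, and 8 barcodes did so among the kept cells. Cells were clustered with Seurat 5.3.0 in R 4.3.3 on 2000 variable genes less the 10 of the MMP and TIMP families among them (1990), with 37 components, at resolutions of 0.18 and 0.5, and UMIs were summed in Python 3.11.15 with scipy 1.17.1. A cluster took the name of the marker list with the highest score, where at least 3 of its markers were detected in at least 20% of cells. The score was the share of markers so detected, plus a fixed amount for each marker among the 10 genes most enriched in the cluster. A cluster of low depth with none of the list's markers among those 10 genes stayed unnamed. So did a cluster with more markers of another type among them. This naming rule, and the merging of the monocyte, fibroblast, T and natural killer, and mural classes, were set after the clusters were seen. At the coarse resolution 924 cells stayed unnamed, and other names could give other values. Scrublet (scanpy 1.11.5) called 42 cells (0.441%), too few for its calls to be used, and doublets were limited only by the upper bounds. Cells were thinned to 1000 UMIs for the shares, and shallower cells were left out of them. The scripts were checked on simulated counts. The members, lists and named genes were chosen with earlier results of these data known. Genes were named as the members, the gene most like each of them, and, from each related list, those past 2-fold with the widest ratios. Alternatives changed the cell limits, components, scaling, thinning and filter. 1 gene of the related lists, and counts that include it, are not reported here.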

Additional observations from a re-analysis of the deposited data

Results flagged for a closer look

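Mmp3 in adventitial fibroblast-like cells moved in opposite directions at the 2 ages, with a ventilated over nonventilated ratio of 0.517 in young and 2.88 in aged mice. The difference between the ages was not tested, because each group was 1 library, and in the young ventilated library the top 3 cells held 98.4% of the UMIs.

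Barcodes above the upper limits on genes or UMIs, 544 to 671 in each library, were left out of the main comparisons and can hold doublets. They were part of the values given with no upper limits. In these barcodes 5 members were at least 2-fold higher after ventilation at either age or both. No share of all genes is given for these barcodes, so this count has nothing to be set beside. Mmp8 was at 4.80 CPM nonventilated and 23.9 ventilated in young mice (4.98-fold) and at 5.59 and 52.2 in aged mice (9.34-fold). Timp1 was at 29.7 and 237 CPM in young mice (7.99-fold) and at 22.2 and 75.1 in aged mice (3.38-fold). Mmp14 was 2.22-fold higher in young and 2.24-fold higher in aged mice. Mmp19 was 4.50-fold higher in young mice, and Mmp3 was 2.40-fold higher in aged mice. Mmp2 was lower after ventilation at both ages, with 76.0 CPM nonventilated and 38.8 ventilated in young and 71.8 and 44.4 in aged mice. Timp2 was lower too, with 369 and 199 CPM in young and 313 and 205 in aged mice.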

How the results depend on the processing

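Of 83 ratios past 2-fold, 53 were past it under every setting in which they were recomputed. They were not recomputed with no filter or at 50 CPM, nor after thinning where the thinned pair failed the filter. Ratios over all cells were also not recomputed at the finer resolution, with fewer components or with the family genes kept for clustering. Of 734 recomputed values, 599 moved by less than their counting interval, 129 moved by more and 6 changed direction. Over all cells, the count of members past 2-fold between the nonventilated ages (2) was 1 with a mitochondrial limit of 5% and 0 with a mean of at least 50 CPM, and that for ventilation in aged mice (5) was 2 with the latter. The counts of member and class pairs moved more. Aged over young nonventilated (9), the count was 14 with no upper limits, 2 after thinning, 28 with no filter and 3 at 50 CPM. For ventilation in young mice (29) it was 15 after thinning and 66 with no filter, and in aged mice (18) it was 29 with no upper limits and 46 with no filter. Aged over young ventilated (11), it was 19 with no upper limits, 3 after thinning, 5 without the highest 5% of Scrublet scores, 40 with no filter and 7 at 50 CPM. Fewer or more pairs pass under these filters by construction, and thinned values under the filter could not be given. With no upper limits, the ratio reversed for Mmp19 in interstitial macrophage-like cells in aged mice (0.651), Timp2 in alveolar macrophage-like cells aged over young ventilated (1.10), Timp3 in T- or NK-like cells aged over young ventilated (5.93) and Timp3 in interstitial macrophage-like cells after ventilation in young mice (1.14, and 1.12 with a mitochondrial limit of 5%). That limit also reversed Timp3 in the same class aged over young nonventilated (1.22). The cause was not tested. The class with the highest level was the same for 10 of 10 members in the settings run, except with 20 components (9, with Timp1 highest in fibroblast-like cells) and in the finer classes (8). The ratios without the highest 1 or 3 cells were chosen after seeing the data. No paired analysis was possible because each group is 1 library. Depth limits the values of classes with few cells, such as the 16 to 37 myofibroblast-like cells of a library.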

Other observations

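Other MMPs of the lung lay in cells that the members also marked, and several were lower after ventilation. In general capillary-like cells, Mmp15 was at 52.2 CPM in the young nonventilated and 2.01 in the young ventilated library (0.0384 times, 0.0190 to 0.0699), and at 45.2 and 9.44 CPM in the aged ones (0.209 times, 0.144 to 0.295). Mmp28, a secreted protease also known as epilysin, was at 39.0 and 2.55 CPM in young and 30.5 and 4.47 CPM in aged libraries of the same class. In fibroblast-like cells of young mice, Mmp11 was at 23.5 and 4.80 CPM and Mmp23 at 21.9 and 4.62 CPM. Over all classes, 10 of 13 pairs of these other family genes and a class that passed the filter were lower in young mice and 8 of 15 in aged mice, beside 13.1% and 9.7% of all pairs.

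Cd44, a hyaluronan receptor that can hold MMP9 at the cell surface, was at 113, 713, 154 and 301 CPM in fibroblast-like cells (young nonventilated, young ventilated, aged nonventilated, aged ventilated). Ctsk, a collagen-cutting cathepsin, was at 154, 574, 309 and 476 CPM, in the same order, in alveolar macrophage-like cells, the order of libraries that Mmp19 had there.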
